A study of Homo sapiens with 12 samples.

Results

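The 44 genes described here act in mitosis: cyclins and kinases that start it, checkpoint and kinetochore proteins that attach chromosomes to the spindle, condensins, and proteins that divide the cell. Kinesin motors were left out of the list as a family, although CENPE, a kinetochore protein that is itself a kinesin-type motor, is in it. The list names genes by function and uses no measured value, although it was drawn up with earlier results of these data known, and each gene was read on the probe set of highest mean signal over 12 arrays among those annotated to that gene alone. All 44 were tested, of 14061 genes that passed a filter on dim probe sets and 19775 genes with such a probe set. The arrays were Affymetrix U133 Plus 2.0, and RNA came from a pair of human cancer lines, the bladder carcinoma line SW780, grown in Leibovitz's L-15 medium, and the lung adenocarcinoma line A549, grown in RPMI1640. Each line received siKDM3A, an siRNA against the histone H3 lysine 9 demethylase KDM3A, or one of the control siRNAs siEGFP and siFFluc, named after reporter genes. All 6 groups were exposed to 100 nM siRNA in a lipid reagent for 24 h, and each has 2 arrays. The labels name 1 siKDM3A and do not say whether the 2 arrays of a group came from separate cultures, so the error behind each p-value may be technical only.

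A dividing cell raises most of these transcripts in G2 and mitosis and clears many of the proteins as it exits. CDK1 bound to cyclin B drives entry, Aurora and Polo kinases build the spindle, and the checkpoint holds the anaphase-promoting complex in check until every kinetochore is attached. The complex then tags securin and cyclin B for destruction, sister chromatids part, and the cell is cut in 2 by the contractile ring. Many of these genes are widely used as proliferation markers in tumour samples. RNA was taken from whole cultures, so more cells carrying a transcript and more transcript in each cell cannot be told apart.

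KDM3A itself was read first, and its arrays separated in both lines. In SW780 its signal was 197 and 223 with siKDM3A, 409.8 and 373 with siEGFP and 359 and 433 with siFFluc, which left 53.3% of the control mean (log2 fold change -0.86 ± 0.10, adjusted p = 0.000274). In A549 it was 692 and 712 with siKDM3A, 1299.7 and 1307 with siEGFP and 1519 and 1437 with siFFluc, or 50.5% of the control mean (-0.97 ± 0.10, adjusted p = 8.34e-05). Across whole arrays the median signal was 58.1 and 54.3 with siKDM3A against 50.3 to 54.2 in the SW780 controls, and 53.1 and 51.9 against 57.4 to 59.1 in the A549 controls. In A549 both siKDM3A arrays were below all controls, whereas in SW780 replicate 1 was above them and replicate 2 level with the highest. The 3' to 5' signal ratio of beta-actin, a measure of RNA integrity, was 1.51 and 1.61 with siKDM3A in SW780 against 1.39 to 1.44, and 1.19 and 1.16 in A549 against 1.20 to 1.30. The same ratio of GAPDH was 0.978 and 0.995 with siKDM3A in SW780, within the 0.960 to 0.999 of the controls, and 0.893 and 0.896 in A549 against 0.914 to 0.932. The part of these shifts in the results below was not tested. The epithelial marker KRT18 had a signal of 29681 to 43412 in SW780 and 24380.4 to 27172 in A549. KRT8 ranges overlapped, at 10814 to 18931 and 11246 to 12862. The others were lower in A549. CDH1 was at 15808 to 24670 in SW780 and 2061 to 2389 in A549, and EPCAM at 11555 to 15235 and 2463 to 3018.5. KRT19 was at 24637 to 37498.5 and 882 to 1199. The urothelial markers GATA3 (10803 to 16049) and UPK1B (8502 to 11274) were bright in SW780. UPK3A was at 4.0 to 9.3 there, KRT20 at 46.8 to 115.6 and UPK2 at 77.6 to 194.1. Of the alveolar markers in A549, SFTPB was at 92.1 to 210.8 and NAPSA at 45.9 to 120.8, both dim. SFTPC reached 67.8 and SFTPD 19.5 at most and NKX2-1 stayed under 33.6, the mean signal used as the filter on dim probe sets. On SW780 arrays SFTPC reached 147.7 and NKX2-1 93.8, more than in A549, whereas SFTPB, NAPSA and SFTPD peaked lower than in A549. The leukocyte gene PTPRC was at or below 24.0 on all 12 arrays, and the summed signal of the leukocyte markers was 176 to 194 with siKDM3A against 123 to 174 in SW780 and 186 to 201 against 214 to 248 in A549. The summed signal of the fibroblast markers was 571 to 610 with siKDM3A against 464 to 887 in SW780 and 849 to 977 against 1207 to 1254 in A549. The summed urothelial markers in SW780 were at 26856 to 27866 with siKDM3A against 28126 to 34313, and the summed alveolar markers in A549 at 220.0 to 280.0 against 299 to 387. The summed epithelial markers were at 98879 to 110013 with siKDM3A against 94831 to 139746 in SW780 and at 44793 to 45769 against 41431 to 44566 in A549. The part of these marker levels in the results was not tested either.

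More of the 44 mitosis genes were called higher than lower with siKDM3A in both lines. In SW780, 17 of the 44 rose (38.6%, where 5.68% of all genes tested were called higher) and 1, BIRC5, fell (6.15% of all genes were called lower). In A549, 12 of the 44 rose (27.3%, against 5.33% of all genes) and none fell in limma's test (6.35% of all genes did). At an unadjusted p under 0.05 the counts were 23 higher and 3 lower in SW780 (13.4% and 12.3% of all genes) and 20 higher and 1 lower in A549 (11.8% and 13.6%). The median log2 fold change of the 44 was 0.16 in SW780, where that of all genes was 0.03, and 0.17 in A549, where that of all genes was -0.02. Changes were of modest size, from -0.45 to 0.76 in SW780 and from -0.24 to 0.49 in A549. Both siKDM3A arrays lay above all 4 control arrays of the line for 24 members in SW780 (15.3% of all genes did) and for 25 in A549 (17.0%). They lay below all 4 for 1 member in SW780 (13.3%) and 2 in A549 (19.9%). Among the 3 group means of a line, siKDM3A was the highest for 28 of 44 members in SW780 (63.6%, against 37.7% of all genes) and for 32 in A549 (72.7%, against 33.4%). The siFFluc mean was the lowest for 27 in SW780 (61.4%, against 36.1%) and for 29 in A549 (65.9%, against 29.3%). Setting every array to the same median signal left the SW780 counts at 15 higher and 1 lower (4.79% and 6.57% of all genes). It moved A549 to 24 higher, where 13.1% of all genes were called higher and their median shifted to 0.08. In both scalings the members' median in A549 stood 0.19 above that of all genes. Under quantile normalization it stood 0.11 above, with 11 members called higher (6.14% of all genes).

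**Figure D1:**
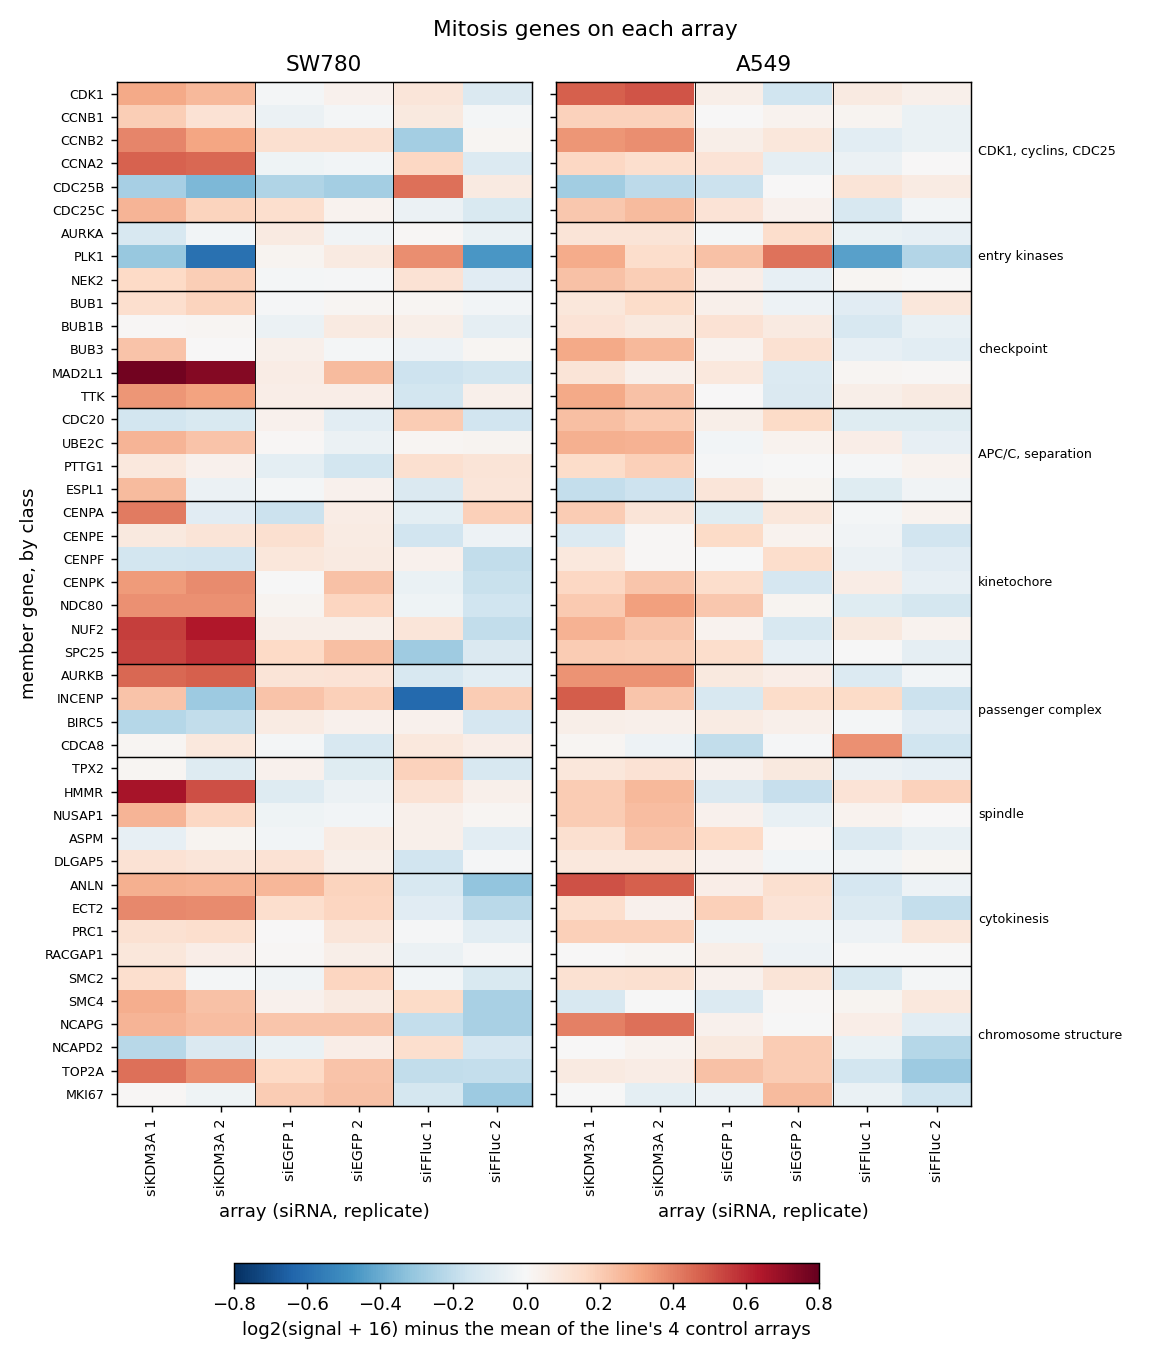
Each column is 1 array and each row 1 of the 44 genes, ordered by class; colour gives log2(signal + 16) minus the mean of the 4 control arrays of the same line, red above and blue below. The siKDM3A columns are mostly red in both lines, darkest for MAD2L1, HMMR, NUF2 and SPC25 in SW780 and for CDK1 and ANLN in A549, while CDC25B is blue in both.

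**Figure D2:**
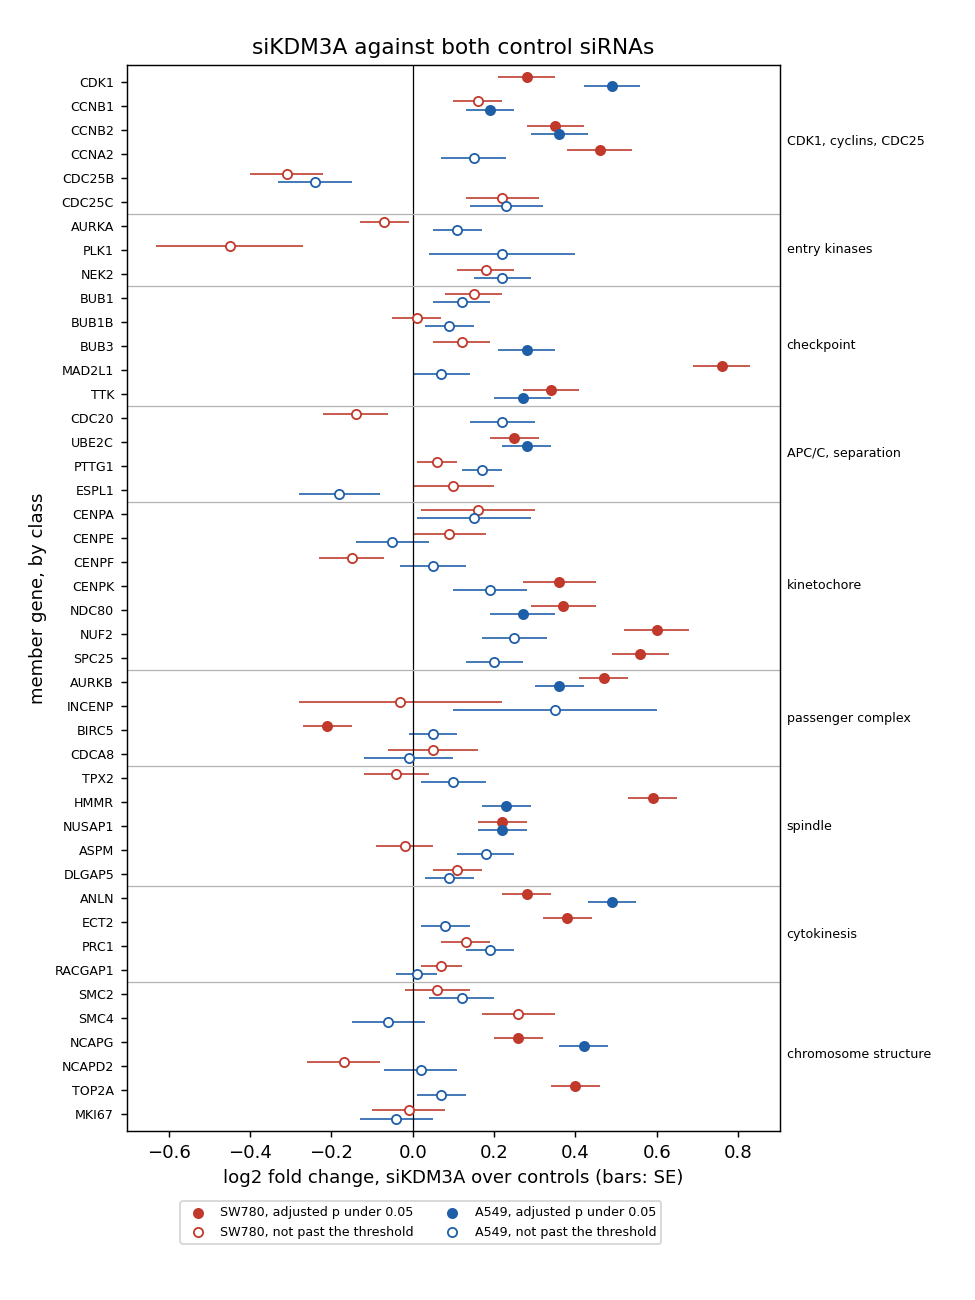
Points give the log2 fold change of siKDM3A over the average of both control siRNAs, with bars of 1 SE, for SW780 (red) and A549 (blue), and filled points have an adjusted p under 0.05. Of the filled points, 17 in SW780 and 12 in A549 lie right of 0, and BIRC5 in SW780 at -0.21 is the 1 filled point left of 0.

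Some calls were shared between lines, listed here as a description, since the share of all genes called in both lines was not counted. ANLN, AURKB, CCNB2, CDK1, HMMR, NCAPG, NDC80, NUSAP1, TTK and UBE2C rose in both, 10 of the 17 that rose in SW780 and of the 12 in A549. A further 7 were called in SW780 alone (CCNA2, CENPK, ECT2, MAD2L1, NUF2, SPC25 and TOP2A), 2 in A549 alone (BUB3 and CCNB1), and 24 in neither. Several calls rested on both siKDM3A arrays being present. In SW780 the count of 18 calls was 8 without siKDM3A replicate 1 and 9 without replicate 2. In A549 the count of 12 was 4 without either siKDM3A array, and 7 without siEGFP replicate 2, siFFluc replicate 1 or siFFluc replicate 2. The members whose call held without any 1 of the 12 arrays were CCNA2, MAD2L1, NUF2, SPC25, AURKB, HMMR, ECT2 and TOP2A in SW780 and CDK1, AURKB, ANLN and NCAPG in A549. The other 10 in SW780 all lost it without siKDM3A replicate 1 (adjusted p 0.0735 to 0.226), and the other 8 in A549 lost it without siKDM3A replicate 1 (0.0656 to 0.245) and without replicate 2 (0.0777 to 0.337). With 1 siKDM3A array left, that array is assumed to vary like the other groups. The share of all genes called with an array left out is not given here. A loss of calls over all genes and one particular to the members therefore cannot be told apart. Calls in 1 line alone also turned on the probe set, since bright second probe sets of 4 of these genes moved in the other line, read here without adjustment. In A549 a second CCNA2 probe set gave 0.49 ± 0.07 and a second MAD2L1 probe set 0.33 ± 0.07. In SW780 a second CCNB1 probe set gave 0.47 ± 0.10 and a second BUB3 probe set 0.39 ± 0.07. Of called members, 12 in SW780 had other probe sets above the filter, and all 18 of these moved the same way; in A549, 9 did, and 12 of 14 moved the same way.

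Promoters are shown for 5 members, to set genes that rose beside one that was not called: 4 that rose in both lines (AURKB, CDK1, CCNB2 and HMMR) and PLK1, which was called in neither. Sequences are from RefSeq (GRCh38.p14), 250 bases before to 50 after the start of the gene, and the table held 37 of the 44 members. Promoters of G2 and mitosis genes are known for the CHR element, here searched as TTTGAA, often with CCAAT boxes upstream. Both letter runs were searched on both strands, overlapping matches included. TTTGAA was in 27 of 37 member promoters (73.0%) and in 15.4% of 27305 promoters of the same length in the table, or 10.1% of the 11321 among them of genes tested here. CCAAT was in 27 of 37 (73.0%) against 35.7% of the table and 36.4% of genes tested, and both together were in 20 (54.1%) against 6.08% and 4.17%. TTTGAA was in 12 of 16 promoters (75.0%) of members that rose in at least 1 line and in 15 of 21 (71.4%) of those that rose in neither, a description without a test. The windows are AURKB at chr17:8210176-8210475 on the minus strand, CDK1 at chr10:60778081-60778380, CCNB2 at chr15:59104896-59105195, HMMR at chr5:163460382-163460681 and PLK1 at chr16:23678639-23678938, the last 4 on the plus strand. Capitals mark TTTGAA and CCAAT, the second also as ATTGG where it lies on the other strand:
AURKB: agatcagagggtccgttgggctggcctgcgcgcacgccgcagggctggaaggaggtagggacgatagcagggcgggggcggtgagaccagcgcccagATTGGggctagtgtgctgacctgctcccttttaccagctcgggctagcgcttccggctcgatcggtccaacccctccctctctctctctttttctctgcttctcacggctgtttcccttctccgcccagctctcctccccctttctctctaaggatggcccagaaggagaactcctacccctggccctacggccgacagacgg
CDK1: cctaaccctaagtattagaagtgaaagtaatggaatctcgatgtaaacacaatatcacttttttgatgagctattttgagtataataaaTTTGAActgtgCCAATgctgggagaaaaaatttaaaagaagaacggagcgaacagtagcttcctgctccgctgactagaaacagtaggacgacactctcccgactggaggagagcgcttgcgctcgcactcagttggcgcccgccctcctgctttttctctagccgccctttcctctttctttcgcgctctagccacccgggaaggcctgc
CCNB2: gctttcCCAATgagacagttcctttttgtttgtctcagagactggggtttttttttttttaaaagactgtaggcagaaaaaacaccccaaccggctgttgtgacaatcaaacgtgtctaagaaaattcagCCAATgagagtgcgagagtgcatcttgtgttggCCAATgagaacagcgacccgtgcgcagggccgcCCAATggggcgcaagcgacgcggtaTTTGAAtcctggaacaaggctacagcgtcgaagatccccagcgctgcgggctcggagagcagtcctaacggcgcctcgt
HMMR: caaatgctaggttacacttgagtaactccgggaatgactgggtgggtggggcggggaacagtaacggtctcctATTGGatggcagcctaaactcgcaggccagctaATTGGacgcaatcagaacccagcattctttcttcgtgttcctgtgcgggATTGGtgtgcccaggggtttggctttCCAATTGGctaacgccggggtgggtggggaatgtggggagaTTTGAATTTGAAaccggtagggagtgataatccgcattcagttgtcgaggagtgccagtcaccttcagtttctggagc
PLK1: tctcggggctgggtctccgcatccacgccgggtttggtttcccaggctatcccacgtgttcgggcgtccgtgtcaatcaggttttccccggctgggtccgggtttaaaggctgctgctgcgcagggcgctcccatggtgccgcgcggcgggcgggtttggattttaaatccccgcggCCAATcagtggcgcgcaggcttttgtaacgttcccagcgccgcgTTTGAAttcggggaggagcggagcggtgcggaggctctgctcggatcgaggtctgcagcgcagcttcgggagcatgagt
HMMR holds 2 adjoining TTTGAA runs and 5 CCAAT matches, of which 2 overlap, and CCNB2 holds 1 and 4. PLK1 and CDK1 hold 1 of each, and AURKB holds 1 CCAAT and no TTTGAA in this window.

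The first class holds CDK1, the kinase whose activation starts mitosis, with its partners cyclin B1 (CCNB1), cyclin B2 (CCNB2) and cyclin A2 (CCNA2) and the activating phosphatases CDC25B and CDC25C. CDK1 and 2 of the cyclins rose in each line, and the phosphatases did not pass the test. CDK1 in SW780 had signals of 13299.6 and 12946 with siKDM3A, 10684 and 11047 with siEGFP and 11542 and 9958 with siFFluc. In A549 its signals were 15212 and 15508 with siKDM3A, 11275 and 9802 with siEGFP and 11487 and 11236 with siFFluc. The siKDM3A arrays stood above all control arrays in both lines, with a log2 fold change of 0.28 ± 0.07 in SW780 (adjusted p = 0.0228) and 0.49 ± 0.07 in A549 (adjusted p = 0.000743).

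CCNB2 rose by a similar amount in the 2 lines. Its SW780 signals were 6841 and 6493 with siKDM3A, 5704 and 5694 with siEGFP and 4313 and 5282 with siFFluc (log2 fold change 0.35 ± 0.07, adjusted p = 0.00768). Its A549 signals were 9411 and 9503 with siKDM3A, 7599 and 7823 with siEGFP and 6922 and 7100.3 with siFFluc (0.36 ± 0.07, adjusted p = 0.00658). Within each line siEGFP lay above siFFluc, and siKDM3A above both. A second, much dimmer CCNB2 probe set gave -0.50 ± 0.37 in A549 and turned the averaged A549 value to -0.07. CCNA2 in SW780 had signals of 3764 and 3728 with siKDM3A, 2650.2 and 2672 with siEGFP and 3037 and 2515 with siFFluc, and rose by 0.46 ± 0.08 (adjusted p = 0.00225). In A549 its signals were 4079.7 and 3990.2 with siKDM3A, 3936 and 3469 with siEGFP and 3528 and 3647 with siFFluc, with a change of 0.15 ± 0.08 that did not pass (adjusted p = 0.265). A second CCNA2 probe set, of mean signal 2417, gave 0.33 ± 0.07 in SW780 and 0.49 ± 0.07 in A549, the opposite order. On the chosen probe set the 2 changes were not shown to differ (0.32 ± 0.11, adjusted p = 0.149). CCNB1 was called in A549 alone (0.19 ± 0.06, adjusted p = 0.0482), with 0.16 ± 0.06 in SW780 (adjusted p = 0.0886). Its second probe set, of mean signal 2409, gave 0.47 ± 0.10 in SW780 and 0.51 ± 0.10 in A549.

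CDC25B passed the test in neither line. SW780 had signals of 627 and 586 with siKDM3A, 637 and 623 with siEGFP and 1034 and 796 with siFFluc (log2 fold change -0.31 ± 0.09, adjusted p = 0.0508). Here the siKDM3A arrays overlapped the siEGFP arrays and the siFFluc arrays stood apart, and siEGFP itself was below siFFluc (-0.52 ± 0.11, adjusted p = 0.0192). In A549 the signals were 3734 and 3922 with siKDM3A, 4014 and 4548 with siEGFP and 4877 and 4743 with siFFluc, all siKDM3A arrays below all controls (-0.24 ± 0.09, adjusted p = 0.122). CDC25C was at 0.22 ± 0.09 in SW780 and 0.23 ± 0.09 in A549, neither past the threshold, with no overlap between siKDM3A and control arrays in either line.

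None of the 3 kinases of spindle and centrosome assembly, AURKA, PLK1 and NEK2, passed the test in either line; unadjusted, 1 was higher and 1 lower in SW780 and 1 higher in A549. NEK2, which separates the centrosomes, had the smallest p of the class in both. The SW780 arrays read 2667 and 2738 with siKDM3A, 2359.5 and 2374 with siEGFP and 2583 and 2246 with siFFluc (0.18 ± 0.07, adjusted p = 0.114). A549 had signals of 4311 and 4198 with siKDM3A, 3799.9 and 3488 with siEGFP and 3704 and 3646 with siFFluc (0.22 ± 0.07, adjusted p = 0.0554). In both lines the siKDM3A arrays lay above every control. PLK1, the Polo kinase of spindle assembly, varied widely between replicates. In SW780 it gave 340.3 and 274 with siKDM3A, 430.0 and 446 with siEGFP and 554 and 303 with siFFluc (-0.45 ± 0.18, adjusted p = 0.129). In A549 it gave 2329.8 and 2084 with siKDM3A, 2229 and 2556 with siEGFP and 1397 and 1601 with siFFluc (0.22 ± 0.18, adjusted p = 0.499), where siFFluc stood apart from the other 2 siRNAs. AURKA, the centrosomal Aurora kinase, was at -0.07 ± 0.06 in SW780 and 0.11 ± 0.06 in A549.

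Of the 5 spindle checkpoint genes, MAD2L1 and TTK rose in SW780 and BUB3 and TTK in A549. MAD2L1 encodes the checkpoint protein that binds and blocks the activator of the anaphase-promoting complex. In SW780 its signals were 9961 and 9714 with siKDM3A, 6072 and 6938 with siEGFP and 5190.1 and 5247 with siFFluc, the largest change of any member in either line (0.76 ± 0.07, adjusted p = 3.59e-05). In A549 they were 8895 and 8522 with siKDM3A, 8774 and 7662 with siEGFP and 8371 and 8307 with siFFluc, with siKDM3A and control arrays overlapping (0.07 ± 0.07, adjusted p = 0.568). TTK, the kinase that recruits the checkpoint to kinetochores, rose in both. Its SW780 signals were 2219 and 2179 with siKDM3A, 1802 and 1804 with siEGFP and 1568 and 1785 with siFFluc (0.34 ± 0.07, adjusted p = 0.00768). The A549 arrays read 2924 and 2790.3 with siKDM3A, 2374 and 2182 with siEGFP and 2442 and 2484 with siFFluc (0.27 ± 0.07, adjusted p = 0.0247).

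BUB3, which brings BUB1 and BUB1B to kinetochores, was read on a probe set whose suffix marks possible cross-hybridisation. SW780 had signals of 11773 and 10091 with siKDM3A, 10331 and 9963 with siEGFP and 9771 and 10173 with siFFluc, and siKDM3A and control arrays overlapped (0.12 ± 0.07, adjusted p = 0.302). In A549 they were 13299.7 and 12859 with siKDM3A, 10957 and 11713 with siEGFP and 10298 and 10129 with siFFluc, with no overlap (0.28 ± 0.07, adjusted p = 0.0165). A second BUB3 probe set, of mean signal 9517, gave 0.39 ± 0.07 in SW780 and 0.12 ± 0.07 in A549, the opposite order. BUB1, a kinetochore kinase, had signals of 2256 and 2329 with siKDM3A, 2047 and 2076 with siEGFP and 2084 and 2026 with siFFluc in SW780 and 3084 and 3211 with siKDM3A, 2988 and 2813 with siEGFP and 2720.2 and 3089.5 with siFFluc in A549. Its siKDM3A arrays lay above the controls in SW780 by a small margin and overlapped them in A549, at 0.15 ± 0.07 and 0.12 ± 0.07, and neither passed. BUB1B, the checkpoint protein BubR1, was at 0.01 ± 0.06 in SW780 and 0.09 ± 0.06 in A549.

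Among the 4 genes of chromatid separation, UBE2C rose in both lines and no other passed. UBE2C is the ubiquitin-conjugating enzyme that serves the anaphase-promoting complex. In SW780 its signals were 9761 and 9487 with siKDM3A, 8144 and 7836 with siEGFP and 8164 and 8189 with siFFluc (0.25 ± 0.06, adjusted p = 0.0111). In A549 they were 10126 and 10103 with siKDM3A, 8216 and 8502 with siEGFP and 8647 and 7954 with siFFluc (0.28 ± 0.06, adjusted p = 0.00607). The control siRNAs lay close together in both lines and the siKDM3A arrays clear above them. CDC20, the activator of that complex, gave 4103 and 4171 with siKDM3A, 4661 and 4286 with siEGFP and 5245 and 4079 with siFFluc in SW780, an overlap with the controls (-0.14 ± 0.08). The A549 arrays gave 7029 and 6871 with siKDM3A, 6142 and 6608 with siEGFP and 5565 and 5553 with siFFluc, without overlap (0.22 ± 0.08, adjusted p = 0.113).

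PTTG1, or securin, the inhibitor of separase, has near-identical gene copies, and its probe set too carries the suffix for possible cross-hybridisation. In SW780 it gave 13529 and 13027 with siKDM3A, 12086 and 11481 with siEGFP and 13896 and 13656 with siFFluc, where siKDM3A lay between the control siRNAs (0.06 ± 0.05) and siEGFP was below siFFluc (-0.23 ± 0.06, adjusted p = 0.0493). That call was kept under 6 of 21 alternatives, and quantile normalization gave -0.04 (adjusted p = 0.7). A549 had 15114 and 15540.4 with siKDM3A, 13509 and 13573 with siEGFP and 13508 and 13913 with siFFluc, above all controls but past no threshold (0.17 ± 0.05, adjusted p = 0.055). ESPL1, separase itself, the protease that opens cohesin, gave 521 and 420.5 with siKDM3A, 430.1 and 446 with siEGFP and 399 and 465 with siFFluc in SW780 and 889 and 904 with siKDM3A, 1089 and 1032 with siEGFP and 950.1 and 998 with siFFluc in A549. These overlapped the controls in SW780 (0.10 ± 0.10) and lay below them in A549 (-0.18 ± 0.10, adjusted p = 0.327).

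At the kinetochore, 4 of 7 members rose in SW780 (CENPK, NDC80, NUF2 and SPC25) and NDC80 alone in A549. NDC80, NUF2 and SPC25 are subunits of one complex that grips spindle microtubules. NUF2 in SW780 gave 1686 and 1787 with siKDM3A, 1183 and 1181 with siEGFP and 1225 and 996 with siFFluc (0.60 ± 0.08, adjusted p = 0.000799). In A549 it gave 3021 and 2898 with siKDM3A, 2532 and 2269 with siEGFP and 2624 and 2530.2 with siFFluc (0.25 ± 0.08, adjusted p = 0.0743), again with siKDM3A above every control. SPC25 in SW780 gave 3624 and 3744 with siKDM3A, 2779 and 2940.3 with siEGFP and 2038 and 2295 with siFFluc (0.56 ± 0.07, adjusted p = 0.000544), a stepwise order in which siEGFP was also above siFFluc (0.40 ± 0.09, adjusted p = 0.0206). The A549 arrays gave 1929 and 1922 with siKDM3A, 1843 and 1599.8 with siEGFP and 1671 and 1591 with siFFluc (0.20 ± 0.07, adjusted p = 0.106).

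NDC80 rose in both lines. The SW780 arrays read 4214 and 4198 with siKDM3A, 3313 and 3672 with siEGFP and 3185 and 2919 with siFFluc (0.37 ± 0.08, adjusted p = 0.00901). Its A549 signals were 1313 and 1427 with siKDM3A, 1320.2 and 1153 with siEGFP and 1062 and 1028 with siFFluc (0.27 ± 0.08, adjusted p = 0.0418), where 1 siKDM3A array lay just below the higher siEGFP array. CENPK, of the inner kinetochore, rose in SW780 (0.36 ± 0.09, adjusted p = 0.0206) and was at 0.19 ± 0.09 in A549 (adjusted p = 0.199). The other 3 members of the class did not pass in either line. CENPA, the histone H3 variant that marks centromeres, was read on a probe set with the suffix for possible cross-hybridisation. It was at 0.16 ± 0.14 in SW780 and 0.15 ± 0.14 in A549. CENPE was at 0.09 ± 0.09 and -0.05 ± 0.09, and CENPF, a large outer kinetochore protein, at -0.15 ± 0.08 and 0.05 ± 0.08. A dimmer CENPF probe set, of mean signal 340.0, gave -0.03 ± 0.19 in SW780 and -0.68 ± 0.19 in A549.

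The chromosomal passenger complex joins the kinase AURKB to INCENP, survivin (BIRC5) and borealin (CDCA8), and its members did not move together. AURKB rose in both lines. In SW780 its signals were 1071 and 1087 with siKDM3A, 834 and 836 with siEGFP and 709 and 729 with siFFluc (0.47 ± 0.06, adjusted p = 0.000536). In A549 they were 3792 and 3788 with siKDM3A, 3115 and 3058 with siEGFP and 2729 and 2899 with siFFluc (0.36 ± 0.06, adjusted p = 0.0024). The siKDM3A replicates nearly coincided in each line and stood above both control siRNAs. A much dimmer AURKB probe set, of mean signal 109, gave 0.65 ± 0.33 in SW780 and -0.13 ± 0.33 in A549. With the probe sets averaged, the A549 change was 0.11 and did not pass (adjusted p = 0.741), while the SW780 call was kept. BIRC5 was the only member that fell. Its SW780 signals were 3467 and 3532 with siKDM3A, 4252 and 4159 with siEGFP and 4152 and 3686 with siFFluc (-0.21 ± 0.06, adjusted p = 0.0428), all siKDM3A arrays below all controls. A549 had signals of 3359.5 and 3343 with siKDM3A, 3399.9 and 3345 with siEGFP and 3211 and 3044 with siFFluc (0.05 ± 0.06, adjusted p = 0.718), with overlap.

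The BIRC5 call in SW780 was lost without any 1 of 11 of the 12 arrays, all but siFFluc replicate 2 of SW780, at adjusted p of 0.0507 to 0.211. The 3 other BIRC5 probe sets gave log2 fold changes between -0.18 and -0.04 in SW780 and between -0.31 and -0.11 in A549, where the chosen one gave 0.05. INCENP, the scaffold of the complex, was the dimmest member, with a mean signal of 143 over 12 arrays and wide error (-0.03 ± 0.25 in SW780, 0.35 ± 0.25 in A549). CDCA8 was at 0.05 ± 0.11 in SW780 and -0.01 ± 0.11 in A549.

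Of the 5 spindle genes, HMMR and NUSAP1 rose in both lines. HMMR, a microtubule-bound protein of the spindle poles also known as a hyaluronan receptor, gave signals of 9613 and 8685 with siKDM3A, 5666 and 5875 with siEGFP and 6580.0 and 6246 with siFFluc in SW780 (0.59 ± 0.06, adjusted p = 9.53e-05). A549 had 7476 and 7792 with siKDM3A, 5999.9 and 5713 with siEGFP and 7020.4 and 7390.0 with siFFluc (0.23 ± 0.06, adjusted p = 0.0277). In A549 siEGFP was below siFFluc (-0.30 ± 0.07, adjusted p = 0.0401), and siKDM3A exceeded siFFluc by 0.08 (adjusted p = 0.541). NUSAP1, which bundles spindle microtubules near chromosomes, gave 8577 and 7968 with siKDM3A, 6936 and 7013 with siEGFP and 7322 and 7188 with siFFluc in SW780 (0.22 ± 0.06, adjusted p = 0.0254). In A549 it gave 6248 and 6431 with siKDM3A, 5541 and 5192 with siEGFP and 5536 and 5424 with siFFluc (0.22 ± 0.06, adjusted p = 0.0217). The size of its change was the same in both lines to 2 decimals.

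ASPM, a spindle pole protein, gave 1887 and 2006 with siKDM3A, 1940.4 and 2068 with siEGFP and 2029 and 1864 with siFFluc in SW780 and 3109 and 3340.3 with siKDM3A, 3178 and 2868 with siEGFP and 2634 and 2727 with siFFluc in A549. Its siKDM3A arrays overlapped the controls in both lines (-0.02 ± 0.07 and 0.18 ± 0.07). TPX2, the activator of Aurora A, was at -0.04 ± 0.08 in SW780 and 0.10 ± 0.08 in A549. DLGAP5, which stabilises kinetochore fibres, was at 0.11 ± 0.06 in SW780 and 0.09 ± 0.06 in A549, and neither gene passed.

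In cytokinesis, ANLN rose in both lines and ECT2 in SW780. ANLN encodes anillin, which organises the contractile ring. In SW780 its signals were 7190.5 and 7162 with siKDM3A, 7119.5 and 6687 with siEGFP and 5404 and 4747 with siFFluc (0.28 ± 0.06, adjusted p = 0.0143). The siEGFP arrays lay close to siKDM3A there, and siEGFP exceeded siFFluc by 0.44 ± 0.07 (adjusted p = 0.00548). In A549 the signals were 9906 and 9718 with siKDM3A, 7216 and 7600.4 with siEGFP and 6349.7 and 6758 with siFFluc, with siKDM3A well above both (0.49 ± 0.06, adjusted p = 0.000377).

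ECT2, the exchange factor that switches on the small GTPase RhoA at the cell equator, gave 3813 and 3797 with siKDM3A, 3194 and 3286 with siEGFP and 2737 and 2513 with siFFluc in SW780 (0.38 ± 0.06, adjusted p = 0.00169). The A549 arrays gave 6699 and 6252 with siKDM3A, 6962 and 6579.5 with siEGFP and 5647 and 5354 with siFFluc (0.08 ± 0.06, adjusted p = 0.438). There siKDM3A and siEGFP overlapped and siEGFP was above siFFluc (0.30 ± 0.07, adjusted p = 0.0398), as it was in SW780 (0.30 ± 0.07, adjusted p = 0.0277). PRC1, which crosslinks the midzone microtubules, gave 7078 and 7131 with siKDM3A, 6505 and 6937 with siEGFP and 6437 and 6118 with siFFluc in SW780 (0.13 ± 0.06) and 9784 and 9754 with siKDM3A, 8412 and 8411 with siEGFP and 8325 and 9118 with siFFluc in A549 (0.19 ± 0.06, adjusted p = 0.051). Its siKDM3A arrays lay above all controls in both lines without passing the test. RACGAP1, of the centralspindlin complex, was at 0.07 ± 0.05 in SW780 and 0.01 ± 0.05 in A549.

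The last class covers condensin and other chromosome proteins, of which NCAPG rose in both lines and TOP2A in SW780. NCAPG is a regulatory subunit of condensin I. SW780 had signals of 2208 and 2172 with siKDM3A, 2133 and 2136 with siEGFP and 1598 and 1524 with siFFluc (0.26 ± 0.06, adjusted p = 0.0176), with siEGFP almost level with siKDM3A and above siFFluc (0.45 ± 0.07, adjusted p = 0.00459). The A549 arrays read 2993 and 3074 with siKDM3A, 2316 and 2248 with siEGFP and 2340.0 and 2131 with siFFluc (0.42 ± 0.06, adjusted p = 0.00083), with the controls level and siKDM3A apart. TOP2A, the topoisomerase that untangles sister chromatids, gave 8747 and 8325 with siKDM3A, 7201 and 7551 with siEGFP and 5623 and 5633 with siFFluc in SW780 (0.40 ± 0.06, adjusted p = 0.000842). A549 had 9257 and 9173 with siKDM3A, 10361 and 10135 with siEGFP and 7942 and 7203 with siFFluc (0.07 ± 0.06, adjusted p = 0.539). Here siEGFP was the highest of the 3 groups, above siFFluc by 0.44 ± 0.07 (adjusted p = 0.00242).

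SMC4, a core ATPase of condensin, gave 5558 and 5347 with siKDM3A, 4666 and 4783 with siEGFP and 5054 and 3802 with siFFluc in SW780 (0.26 ± 0.09, adjusted p = 0.0925), above every control array. In A549 it gave 6410.5 and 6989 with siKDM3A, 6474 and 7033 with siEGFP and 7088 and 7422 with siFFluc, with overlap (-0.06 ± 0.09). SMC2, its partner ATPase, was at 0.06 ± 0.08 in SW780 and 0.12 ± 0.08 in A549. NCAPD2, another condensin I subunit, was at -0.17 ± 0.09 and 0.02 ± 0.09. MKI67, the Ki-67 proliferation antigen that coats mitotic chromosomes, had SW780 signals of 1089 and 1054 with siKDM3A, 1245 and 1272 with siEGFP and 978 and 880.4 with siFFluc (-0.01 ± 0.09) and A549 signals of 1234 and 1170.3 with siKDM3A, 1196 and 1476 with siEGFP and 1191 and 1105 with siFFluc (-0.04 ± 0.09). On this probe set the siKDM3A arrays lay among the controls in both lines. The 3 other MKI67 probe sets, of mean signal 444 to 1046, gave -0.18 to 0.20 in SW780 and -0.43 to -0.20 in A549.

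**Figure D3:**
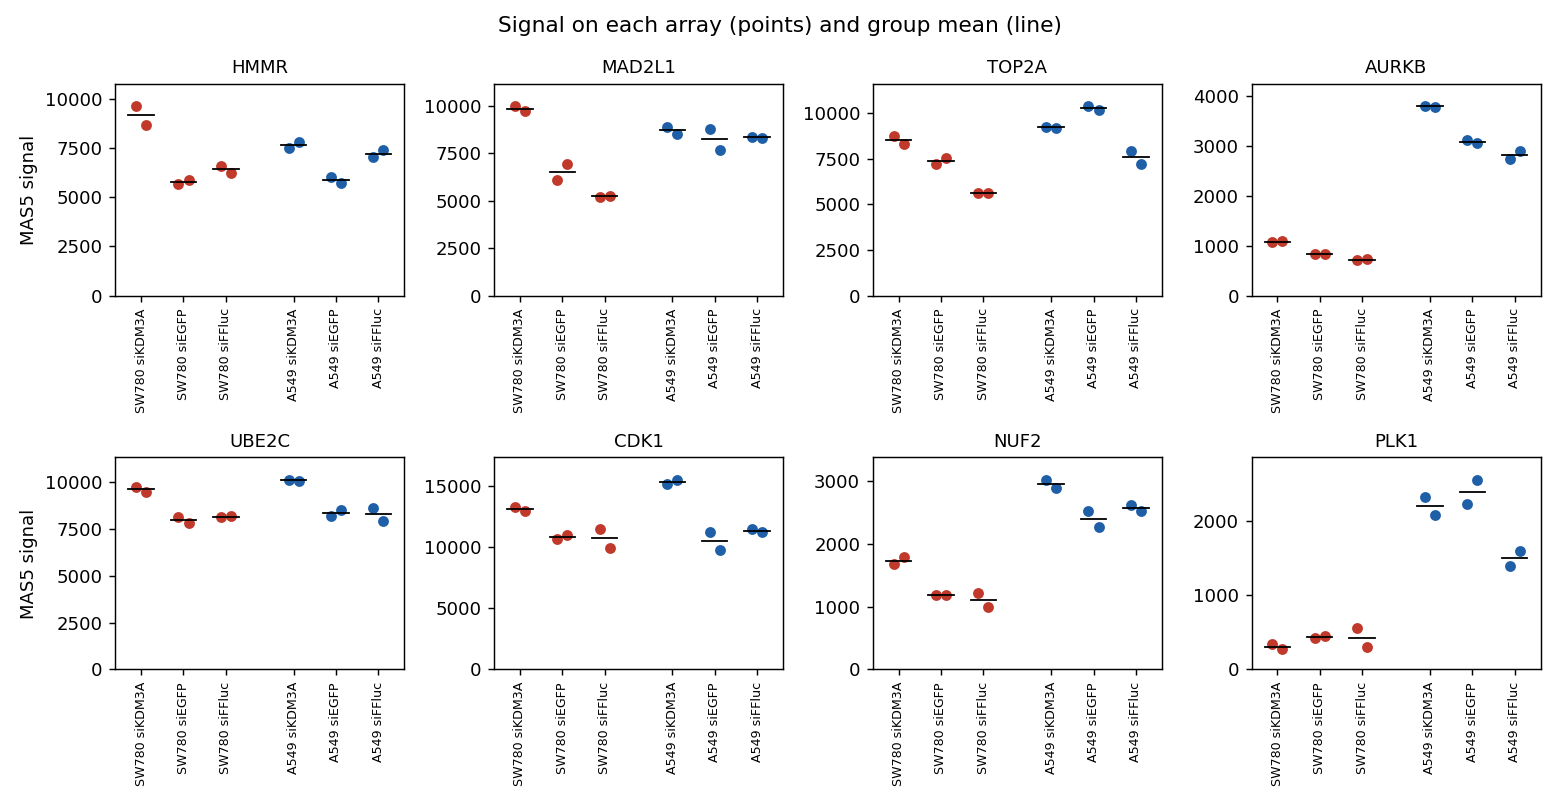
Panels show 8 members with the MAS5 signal on a linear axis from 0, each point 1 array and each line the mean of 2, for siKDM3A, siEGFP and siFFluc in SW780 (red) and A549 (blue). HMMR and MAD2L1 stand out for siKDM3A in SW780, AURKB, UBE2C and CDK1 for siKDM3A in both lines, and PLK1 shows the lower level of SW780 and the spread of its siFFluc arrays.

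The change was compared between lines as the SW780 change minus the A549 change. It differed for 3 members, all with the larger change in SW780: MAD2L1 (0.68 ± 0.10, adjusted p = 0.00525), HMMR (0.35 ± 0.09, adjusted p = 0.0497) and TOP2A (0.34 ± 0.08, adjusted p = 0.0476). That is 6.82% of the 44, where 1.78% of all genes tested were called in this direction and 0.974% in the other. The other 41 ranged from -0.67 for PLK1 to 0.36 for SPC25. Other probe sets of these genes differed from the chosen ones. A second MAD2L1 probe set of mean signal 5019 changed by 0.33 ± 0.07 in SW780 and by 0.33 ± 0.07 in A549. A second HMMR probe set of mean signal 3030.0 changed by 0.23 ± 0.07 in SW780 and by 0.36 ± 0.07 in A549, the opposite order. TOP2A kept its order on a second probe set of mean signal 6587, with 0.47 ± 0.06 in SW780 and 0.00 ± 0.06 in A549. The MAD2L1 difference was lost without A549 siKDM3A replicate 2 (0.65, adjusted p = 0.0544). Those of HMMR and TOP2A were kept without SW780 siFFluc replicate 1 or 2 and lost without any of the other 10 arrays (adjusted p 0.0668 to 0.202 for HMMR and 0.06 to 0.211 for TOP2A). Under median scaling 1 member was called higher and 1 lower (1.04% and 4.04% of all genes), with the all-gene median of this difference at -0.09, where it was 0.04 as deposited.

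Some members separated siEGFP from siFFluc. In SW780, siEGFP was above siFFluc for 7 (ANLN, ECT2, MAD2L1, MKI67, NCAPG, SPC25 and TOP2A; 15.9%, against 2.6% of all genes) and below it for CDC25B and PTTG1 (4.55%, against 2.97%), and the median of the 44 was 0.09. MKI67, at 0.43 ± 0.11 (adjusted p = 0.0321), and MAD2L1, at 0.31 ± 0.08 (adjusted p = 0.0393), were among them. With its probe sets averaged, MKI67 was at 0.06 (adjusted p = 0.802). It also did not pass under quantile normalization (0.37, adjusted p = 0.096) or median scaling (0.37, adjusted p = 0.0584). MAD2L1 did not pass under median scaling (0.25, adjusted p = 0.0894), nor PTTG1 under quantile normalization (-0.04, adjusted p = 0.7). In A549, siEGFP was above siFFluc for ECT2 and TOP2A (4.55%, against 1.49%) and below it for HMMR (2.27%, against 1.43%), with a median of 0.06. Median scaling gave 4 higher and 2 lower in SW780 (1.84% and 4.42% of all genes) and 1 higher in A549 (1.44%). The SW780 count of 9 was 5 without either A549 siKDM3A array or without siFFluc replicate 1, 4 without siEGFP replicate 1 and 2 without siEGFP replicate 2. The A549 count of 3 was 1 without any A549 array or either SW780 siEGFP array. The calls of ANLN and NCAPG in SW780 and of TOP2A in A549 held without any 1 of the 12 arrays.

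Against each control siRNA alone, the number of members called differed in SW780, and so did the share of all genes called. In SW780, 8 members were higher and 1 lower than with siEGFP (2.95% and 3.24% of all genes), and 16 were higher and 1 lower than with siFFluc (6.96% and 7.24%). In A549, 9 were higher and none lower than with siEGFP (3.75% and 4.3%), and 9 and none with siFFluc (4.44% and 5.6%). Higher against each control in SW780 were CCNA2, MAD2L1, UBE2C, NUF2, SPC25, AURKB and HMMR, and in A549 CDK1, CCNB2, UBE2C, AURKB, ANLN and NCAPG, so UBE2C and AURKB were in both sets. In SW780 ANLN exceeded siEGFP by 0.06 (adjusted p = 0.733) and siFFluc by 0.50 (adjusted p = 0.000915), and NCAPG exceeded them by 0.04 (adjusted p = 0.833) and 0.48 (adjusted p = 0.000952). In A549 TOP2A was at -0.15 relative to siEGFP (adjusted p = 0.199) and at 0.28 relative to siFFluc (adjusted p = 0.0172). The 2 comparisons share the siKDM3A arrays.

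**Figure D4:**
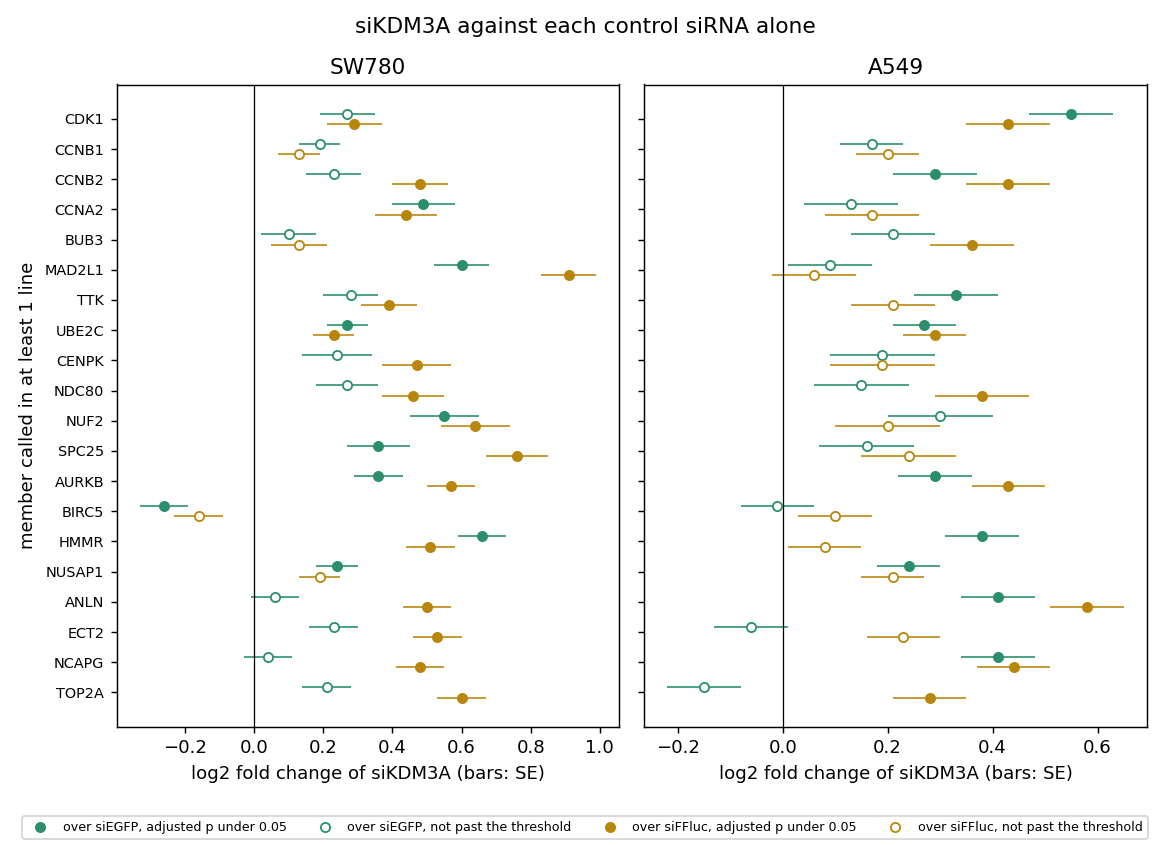
For the 20 members called in at least 1 line, points give the log2 fold change of siKDM3A over siEGFP alone (green) and over siFFluc alone (gold), with bars of 1 SE, in SW780 (left) and A549 (right); filled points have an adjusted p under 0.05. The 2 points of UBE2C lie close together in both lines, whereas those of ANLN and NCAPG in SW780 and TOP2A in A549 lie far apart.

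On the control arrays alone, the lines differed in most of these transcripts. Control arrays of SW780 were above those of A549 for BIRC5, NDC80, NUSAP1 and SPC25 (9.09%, against 30.1% of all genes) and below them for 31 members (70.5%, against 38.8%), with a median difference of -0.38 on the log2 scale where that of all genes was -0.11. Median scaling gave 7 higher and 21 lower (39.0% and 29.6% of all genes), with the all-gene median at 0.10. The members' median stayed 0.26 below it, while TPX2 and MKI67, both called lower, turned to 0.05 and 0.02. Quantile normalization gave 4 higher and 36 lower (31.5% and 36.3% of all genes), with the members' median 0.36 below that of all genes. The lines also differed in growth medium, and line and medium cannot be told apart. CDC25B showed the largest gap, with 622.6 to 1034 on the 4 SW780 control arrays and 4014 to 4877 on those of A549 (-2.56 ± 0.08, adjusted p = 6.3e-12). PLK1 had 303 to 554 in SW780 and 1397 to 2556 in A549 (-2.12 ± 0.15, adjusted p = 2.29e-08). AURKB had 709 to 836 in SW780 and 2729 to 3115 in A549 (-1.90 ± 0.05, adjusted p = 1.79e-12). In each of these the 2 lines were far apart.

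Other low members in SW780 came from several classes: ESPL1 (-1.20 ± 0.09), CENPA (-1.51 ± 0.11), NUF2 (-1.11 ± 0.07), ECT2 (-1.06 ± 0.05) and CENPF (-1.02 ± 0.06). All 3 entry kinases and all 4 cytokinesis genes were lower in SW780, and so were 4 of 5 checkpoint genes and 5 of 6 chromosome structure genes. Under median scaling these counts were 2 of 3 entry kinases, 2 of 4 cytokinesis genes, 4 of 5 checkpoint genes and 2 of 6 chromosome structure genes. Under quantile normalization they were 3 of 3, 4 of 4, 5 of 5 and 4 of 6. The Ndc80 complex was split, with NDC80 higher in SW780 at 2919 to 3672 against 1028 to 1320.2 (1.51 ± 0.06, adjusted p = 1.54e-10), SPC25 higher (0.57 ± 0.06, adjusted p = 2.11e-06) and NUF2 lower. Smaller differences were those of MAD2L1 (-0.51 ± 0.06), BUB1 (-0.49 ± 0.05), NEK2 (-0.61 ± 0.06), CDC20 (-0.39 ± 0.07), ASPM (-0.52 ± 0.06), PRC1 (-0.40 ± 0.05), SMC4 (-0.62 ± 0.08), TOP2A (-0.45 ± 0.05), CCNB2 (-0.49 ± 0.06) and NUSAP1 (0.39 ± 0.05), all called. BIRC5 was higher on the chosen probe set (0.32 ± 0.05, adjusted p = 7.72e-05) and lower, at -0.73, when its probe sets were averaged. With probe sets averaged, BUB1 (-0.21, adjusted p = 0.144), ASPM (-0.11, adjusted p = 0.276) and AURKA (-0.16, adjusted p = 0.149) did not pass. CDC20 did not pass under median scaling (-0.18, adjusted p = 0.0518). Of the 9 not called, CDK1 (-0.02 ± 0.06), CCNB1 (0.04 ± 0.05) and UBE2C (-0.04 ± 0.05) lay nearest to 0. Quantile normalization called CDK1, CCNB1 and UBE2C lower in SW780, along with BUB3, PTTG1 and HMMR. Median scaling called 2 of the 6 genes in the class of CDK1 higher, and 1 of the 4 in that of UBE2C.

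**Figure D5:**
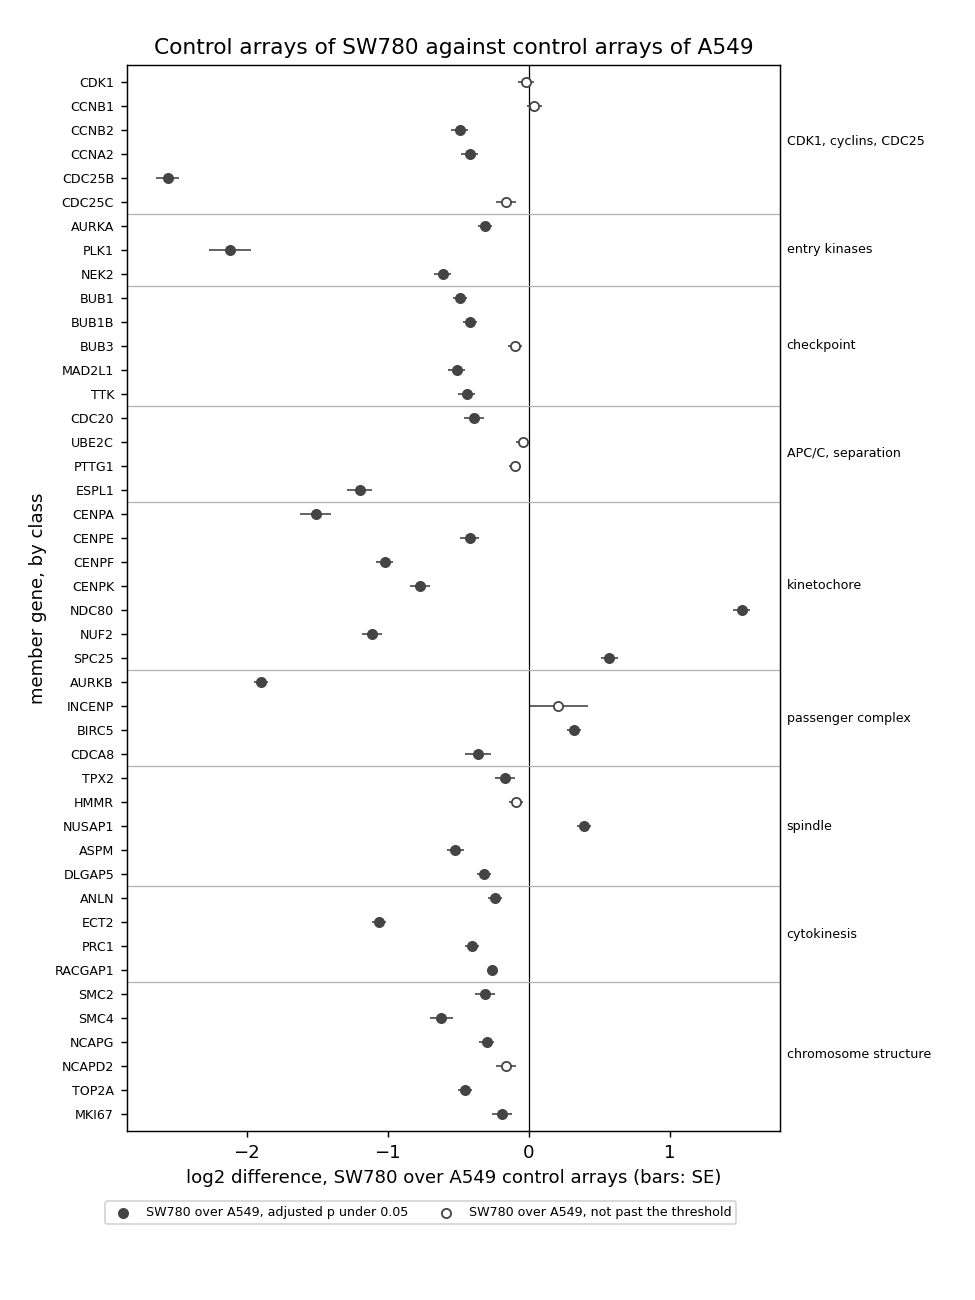
Points give the log2 difference between the control arrays of SW780 and those of A549 for each of the 44 genes, by class, with bars of 1 SE; filled points have an adjusted p under 0.05. Most filled points lie left of 0, as far as -2.56 for CDC25B, and NDC80 lies farthest right at 1.51.

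Another 86 mitosis genes were listed beside the 44, of which 82 were tested. In SW780, 22 of the 82 rose (26.8%, against 5.68% of all genes) and 2 fell (2.44%, against 6.15%), with a median log2 fold change of 0.09 where that of all genes was 0.03. In A549, 17 rose (20.7%, against 5.33%) and 3 fell (3.66%, against 6.35%), with a median of 0.10 where that of all genes was -0.02. By group, 10 of 23 further kinetochore genes rose in SW780 and 4 of 23 in A549, 5 of 11 spindle genes rose in SW780 and 4 of 11 in A549, and 3 of 7 controllers of CDK1 rose in SW780 and 2 of 7 in A549. Of 13 subunits and adaptors of the anaphase-promoting complex, 1 rose in SW780 and 2 in A549. Of 10 cohesin and condensin genes, 2 rose in SW780 and 3 in A549, and of 4 cytokinesis genes, 1 in each line. Of 7 further checkpoint genes, none rose in SW780 in limma's test (1 was higher unadjusted) and 1 rose in A549. None of 7 transcription factors of mitotic genes passed in either line in limma's test; unadjusted, none did in SW780 and 1 was higher and 1 lower in A549. The smallest p values among the rises in SW780 were those of FBXO5, an inhibitor of the anaphase-promoting complex (0.61 ± 0.07, adjusted p = 0.000274), OIP5, which helps load CENPA (0.50 ± 0.06, adjusted p = 0.000297), and CENPQ of the inner kinetochore (0.80 ± 0.10, adjusted p = 0.000315). In A549 they were those of DEPDC1 (0.94 ± 0.08, adjusted p = 1.5e-05), OIP5 (0.48 ± 0.06, adjusted p = 0.000343) and WEE1, the kinase that holds CDK1 inactive (0.50 ± 0.07, adjusted p = 0.0007). For DEPDC1 in A549 siEGFP also exceeded siFFluc, by 0.92 ± 0.09.

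CDC23, a core subunit of the anaphase-promoting complex, fell in both lines. The SW780 arrays read 2154 and 2087 with siKDM3A, 3301 and 3409 with siEGFP and 3217 and 3589 with siFFluc (-0.67 ± 0.07, adjusted p = 7.45e-05). Its A549 signals were 1458 and 1383 with siKDM3A, 2826 and 2852 with siEGFP and 2798 and 2591 with siFFluc (-0.95 ± 0.07, adjusted p = 2.4e-06). Both siKDM3A arrays lay far below all controls, and the control siRNAs lay together. The other falls were of STAG1, a cohesin subunit, in SW780 (-0.34 ± 0.09, adjusted p = 0.0313), and of CENPI of the inner kinetochore (-0.41 ± 0.10, adjusted p = 0.0225) and NCAPD3 of condensin II (-0.27 ± 0.08, adjusted p = 0.0364) in A549.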

How the data were processed

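The deposited table held linear intensity values (MAS5 signals) of 54675 probe sets on 12 arrays, made by the authors with MAS5, per the submitters' processing notes, which name no version. Every array had a trimmed mean of 500.1 after leaving out 2% at each end. Leaving out 62 control probe sets left 54613, of which 41091 had 1 gene symbol in the annotation of 2016, 1801 several and 11721 none, and symbols were updated through RefSeq gene numbers (GRCh38.p14; 41037 probe sets matched). Probe sets with a mean signal of at least the 40th percentile (33.6) were kept, 32768 in all, and the brightest per gene was tested (14061 genes, 7105 with several kept).

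A mean for each of the 6 groups was fitted to log2(signal + 16) in limma 3.58.1 (R 4.3.3; lmFit, eBayes with a trended prior variance) over all 12 arrays. A change in a line is the siKDM3A mean minus the average of both control means, given as log2 fold change ± SE, which understates changes of dim genes. Adjusted p-values are limma's with the Benjamini-Hochberg adjustment over all genes tested, and the threshold was 0.05. The number of arrays, 2 a group, limits the precision. The procedure was tested on simulated arrays with 200 genes changed, drawn at random from all genes tested. Recovery among the members alone, most of them brighter than the filter by far, was not measured. At 1.5-fold, 46.5% were recovered in SW780 and 48.5% in A549, and 6.06% and 6.73% of calls were false. At 2-fold, 63% and 70% were recovered, and 5.26% and 1.41% of calls were false. A gene that was not called may therefore still have changed.

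The 44 members, the 9 classes, the 86 further genes and the cell type markers were chosen with earlier results of these data known. All members are named; values on every array are given for KDM3A and, per class and comparison, for up to 2 members of smallest p among those called, or for the member of smallest p where none passed. Up to 3 further genes per direction and line were named. MKI67 on every array, CCNB1 and the other probe sets were added after their values were seen. Alternatives were quantile normalization, median scaling, pseudocounts of 1 and 64, no filter and a filter at the 60th percentile, the mean of a gene's probe sets, a constant prior variance, each control siRNA alone, a replicate block, and leaving out each of the 12 arrays. Tables and figures used Python 3.11.15 and matplotlib 3.10.9. Raw scans were not analysed here.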

Additional observations from a re-analysis of the deposited data

Results flagged for a closer look

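On the chosen probe sets the change with siKDM3A differed between lines for 3 members, when the SW780 change minus the A549 change was tested. MAD2L1 differed by 0.68 on the log2 scale, with 168% of the control signal in SW780 and 105% in A549. HMMR differed by 0.35, with 150% in SW780 and 117% in A549. TOP2A differed by 0.34, with 131% in SW780 and 103% in A549. None of the 3 calls was kept under all 23 alternatives, and none with the mean of a gene's probe sets or with siEGFP as the only control. A second MAD2L1 probe set changed by 0.33 in both lines, and a second HMMR probe set ran in the opposite order, at 0.23 in SW780 and 0.36 in A549.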

How the results depend on the processing

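Over 23 alternatives, 6 of 18 calls in SW780 (CCNA2, MAD2L1, NUF2, SPC25, AURKB and HMMR) and 3 of 12 in A549 (CDK1, ANLN and NCAPG) were kept under every one, as were 22 of 35 between lines, 1 of 9 between control siRNAs in SW780 (NCAPG, over 21 alternatives), and none of 3 in A549 or of the 3 differences between lines. A constant prior variance gave 10 calls in SW780, 5 in A549, 0 differences between lines, and 1 call between control siRNAs in SW780 and 1 in A549. Median scaling gave 24 in A549, all higher, where 13.1% of all genes were called higher, and 1 between control siRNAs there. With siEGFP as the only control there were 9 calls in SW780 and 0 differences between lines. The mean of probe sets gave 0 differences and 0 calls between control siRNAs in A549, and no filter gave 1 of each. With 1 array left out the counts ranged from 8 to 22 in SW780, from 4 to 18 in A549, from 0 to 7 for the differences, from 2 to 10 between control siRNAs in SW780, from 1 to 4 in A549, and from 33 to 36 between lines. The cause was not tested, and the shares of all genes called with 1 array left out are not given here. Reversed values were CCNB2 in A549, -0.07, and BIRC5 between lines, -0.73, with the mean of probe sets, and TPX2, 0.05, and MKI67, 0.02, between lines under median scaling. Among the further mitosis genes the 24 calls in SW780 were 13 with a constant prior variance and 10 with siEGFP alone, and the 20 in A549 were 7 with a constant prior variance and 13 with siFFluc alone, counts added after seeing the data; with 1 array left out they were 12 to 30 and 5 to 27. Replicate numbers did not pair the arrays, since same-numbered arrays correlated at -0.030 to 0.019 in their deviations from group means. With the replicate number as a block there were 19 calls in SW780, 13 in A549, 1 difference between lines, 9 and 3 between control siRNAs, and 33 between lines. In the last of these the block was coded within each line, so the control arrays were compared at their replicate 1 levels, a different quantity. Of the members, INCENP, the dimmest, had the widest error, followed by PLK1, of mean signal 1212.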
